A study of Rattus norvegicus with 56 samples.

Results

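miR-218a-5p is the microRNA cut from the 5′ arm of 2 precursors, Mir218-1 and Mir218-2, which lie inside the genes of the secreted guidance proteins Slit2 and Slit3. It was found by its name without the species prefix and is 1 of 682 microRNAs listed in the rat myocardium, amniotic fluid and maternal serum of this study. It was selected on its counts in myocardium, because every non-VSD myocardium lay above every NC one. Its myocardial differences are therefore given as a description, with no test, and only the fluids and the comparison of tissues were tested.

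Small RNA was sequenced from Sprague-Dawley rats on embryonic day 19, in 8 groups of 7 samples (56 in all). NC dams received distilled water by gavage. All other dams received dimethadione (DMO), the active metabolite of the anticonvulsant trimethadione and a cause of heart defects in rat fetuses, and their fetuses were divided by outcome. VSD fetuses had a ventricular septal defect, a hole between the ventricles, with normally connected major vessels, and non-VSD fetuses had been exposed to DMO but had an intact septum. All of the NC, non-VSD and VSD outcomes were sampled in myocardium and in amniotic fluid, whereas serum of the dams was sampled for NC and VSD only. Fetuses with umbilical hernia, oedema or another visible malformation had been excluded, and the litter of each fetus and the outcome of its littermates are not given, so littermates may stand among the 7 samples of a group. p-values then measure only the spread between these samples. The same NC samples serve both comparisons within a tissue.

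A microRNA guides the Argonaute complex to messenger RNAs that pair with its seed, bases 2 to 8, and lowers their translation and stability. Slit proteins bind Robo receptors, which steer growing axons and migrating cells, and mice without Slit3 or Robo1 have defects of the heart septa. miR-218 sits inside the genes of the ligands and is known to repress Robo1, a receptor of the same pathway. It is also known as a microRNA of motor neurons and of mesenchymal and vascular cells.

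The sequences are shown because the 2 loci cannot be told apart in the mature microRNA that was counted, while their other arms can. They come from RefSeq (rat assembly GRCr8), run 5′ to 3′, and have the seed in capitals.
miR-218a-5p (both loci): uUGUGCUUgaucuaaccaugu
miR-218a-1-3p (Mir218-1): aAACAUGGuuccgucaagcac
miR-218a-2-3p (Mir218-2): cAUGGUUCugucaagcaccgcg
miR-218b (Mir3565): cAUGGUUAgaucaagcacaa
The copy of miR-218a-5p in Mir218-2 lies at chr10:20572547-20572567 on the plus strand, within Slit3 (chr10:20075929-20660704, plus strand). That precursor starts 496594 bases from the 5′ end of Slit3, at 84.9% of the gene's length, and is read in the same direction. The copy in Mir218-1 lies at chr14:66922413-66922433 on the minus strand, within the span of Slit2 (chr14:66829661-67168517), whose strand was not determined here. Whether each precursor is intronic was not read from an exon annotation, although both are known as intronic microRNAs.

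In the 2 hairpins below the capitals mark miR-218a-5p. They are printed to show that the 5′ arm is identical while the loop and the opposite arm differ.
Mir218-1: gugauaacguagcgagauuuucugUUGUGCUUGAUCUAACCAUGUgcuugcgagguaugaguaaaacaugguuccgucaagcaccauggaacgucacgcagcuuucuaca
Mir218-2: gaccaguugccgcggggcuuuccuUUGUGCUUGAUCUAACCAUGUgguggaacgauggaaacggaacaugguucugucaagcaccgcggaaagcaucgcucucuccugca
Both hairpins are 110 bases long and hold the same base at 70 of 110 positions when set side by side without gaps (63.6%). A read of miR-218a-5p can thus come from either Slit locus. Of 693 mature rat microRNAs in the reference, 1 has this seed, which is miR-218a-5p itself, so the counts below are the whole of its seed family in those sequences. Of the 682 microRNAs listed in the files, 617 matched a reference sequence. miR-218b comes from the strand opposite Mir218-1 and pairs with miR-218a-5p over 20 bases. It was listed in none of the tables.

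miR-218a-5p was an abundant microRNA of fetal myocardium and a scarce one in both fluids. Levels are given as CPM, the reads of it per 1000000 microRNA reads of a library. In NC myocardium the 7 libraries held 11970 to 48846 reads of it, or 2033 to 5212 CPM with a median of 2741. In NC amniotic fluid the reads were 10, 20, 9, 16, 20, 4 and 10 in replicates 1 to 7, which is 17.9 to 242.9 CPM with a median of 100.5. In NC maternal serum they were 6, 11, 9, 4, 8, 0 and 7, at most 33.1 CPM with a median of 14.7. The 7 NC myocardium libraries all lay above every fluid library, and 6 of the 7 NC amniotic fluid libraries lay above every NC serum library.

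**Figure D1:**
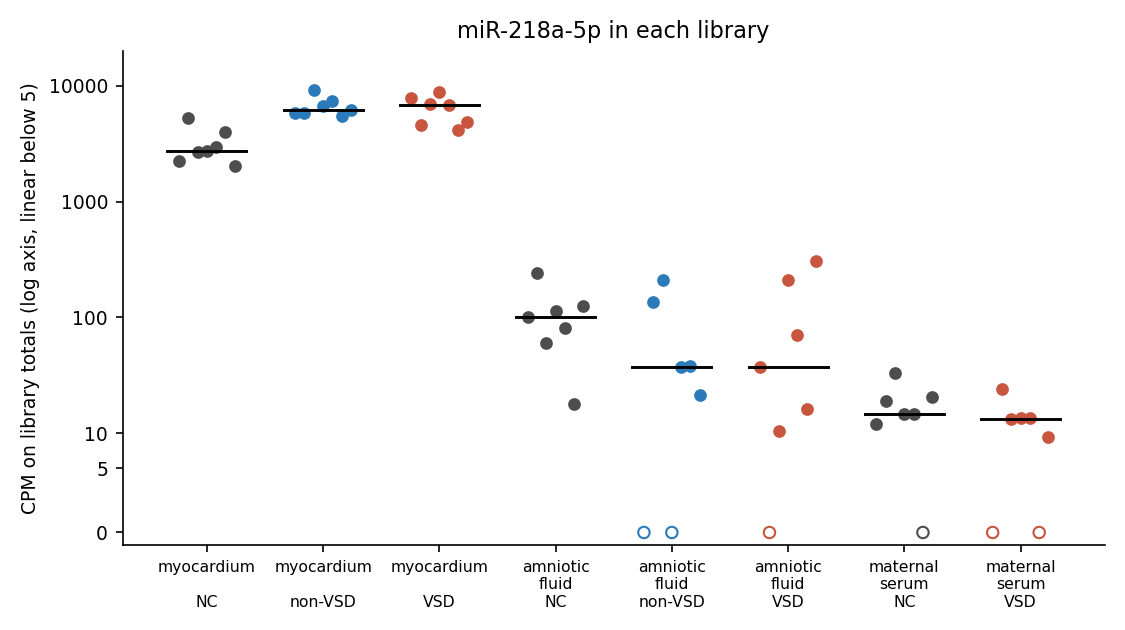
miR-218a-5p in each of the 56 libraries, in CPM on library totals (log axis, linear below 5). Points are libraries, open circles are libraries with 0 reads, and bars are group medians. The 21 myocardium libraries lie between 2033 and 9204 CPM, above all fluid libraries, whose highest value is 309.3 CPM.

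Pooled over the 7 NC libraries, the CPM in myocardium was 217 times that in serum and 37.4 times that in amniotic fluid, and the CPM in amniotic fluid was 5.81 times that in serum. On the scale of log2(CPM + 1) the mean difference from myocardium to serum was 7.89 (exact permutation test, two-sided, n = 7 and 7, p = 0.000583, 0.000874 after Benjamini-Hochberg adjustment over 3 pairs). From myocardium to amniotic fluid it was 5.11, with the same p and adjusted p, and 0.000583 is the smallest p that 7 against 7 can give. From amniotic fluid to serum it was 2.78 (exact permutation test, n = 7 and 7, p = 0.00233, adjusted p = 0.00233). That last difference was 1.27 with adjusted p = 0.112 when the NC libraries of all tissues were scaled together by TMM factors (exact permutation test, n = 7 and 7). Myocardial RNA came from paraffin-embedded tissue, whereas both fluids had been stored frozen. Each tissue had its own RNA extraction kit, and amniotic fluid also had its own library kit and sequencer. Tissue, preservation and kit therefore cannot be told apart.

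In order of median the groups ran VSD myocardium (6830 CPM), non-VSD myocardium (6175), NC myocardium (2741), NC amniotic fluid (100.5), VSD amniotic fluid (37.7), non-VSD amniotic fluid (37.6), NC serum (14.7) and VSD serum (13.3). Neighbours in that order overlapped in range, except that non-VSD myocardium lay wholly above NC myocardium, the difference that selected the microRNA, and NC myocardium wholly above amniotic fluid.

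In fetal myocardium, miR-218a-5p was higher in both groups exposed to DMO than in NC. In NC replicates 1 to 7 it measured 2217, 5212, 2672, 2741, 2942, 3956 and 2033 CPM (mean 3111 ± 1114, SD, n = 7). In non-VSD it measured 5749, 5784, 9204, 6678, 7401, 5481 and 6175 CPM (6639 ± 1306). In VSD it measured 7820, 4608, 7010, 8754, 6830, 4149 and 4894 CPM (6295 ± 1760). The lowest non-VSD library, at 5481, stood just above the highest NC library, replicate 2 at 5212, and the other NC libraries reached 3956. Of the VSD libraries, 4 lay above every NC library and 3, at 4149, 4608 and 4894, lay below NC replicate 2.

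Both DMO groups also had higher levels than NC after scaling by TMM factors, which set the bulk of microRNAs level between libraries and move each library up or down as a whole. On that scale NC ran from 2536 to 4240 CPM (mean 3541 ± 717, SD, n = 7), non-VSD from 5516 to 7701 (6381 ± 717) and VSD from 4309 to 6780 (5417 ± 963). The medians were 3748, 6171 and 5637 CPM, so that non-VSD, not VSD, was then the highest group. VSD then also lay wholly above NC, by a narrow margin of 4309 to 4240. Among all microRNAs of its own library, a measure that needs no scaling, miR-218a-5p ranked 33 to 53 in NC (median 40), 18 to 34 in non-VSD (26) and 22 to 39 in VSD (25). The ranks of non-VSD and NC overlap at a single pair, since NC replicate 2 ranked 33 and non-VSD replicate 6 ranked 34.

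**Figure D2:**
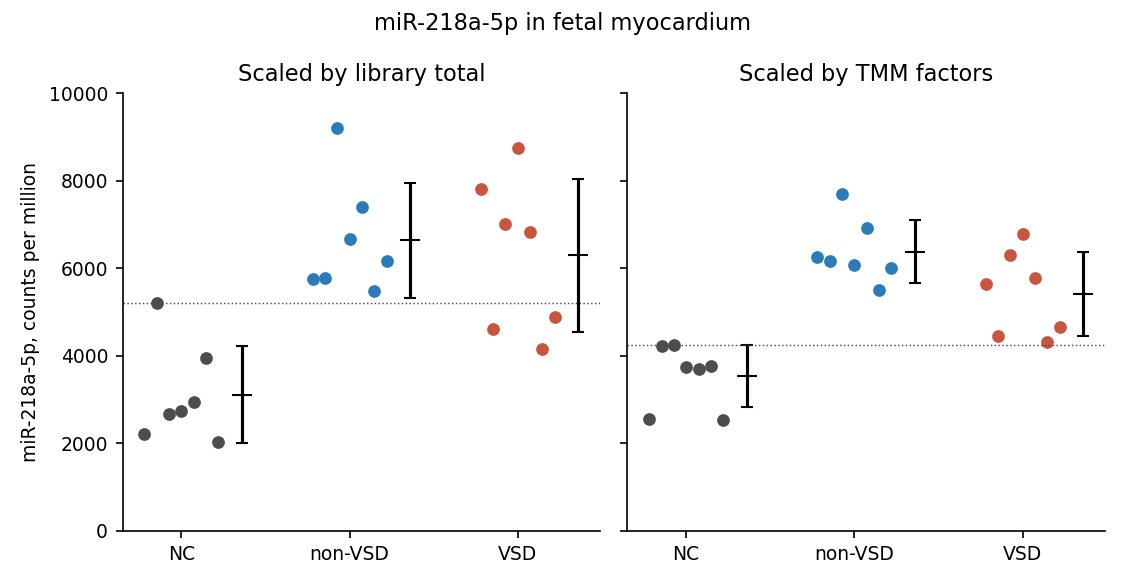
miR-218a-5p in the 21 myocardium libraries in CPM, scaled by library total (left) and by TMM factors (right). Points are libraries, black bars are the mean ± SD of 7, and the dotted line is the highest NC library, which is 5212 CPM on the left and 4240 on the right. All 7 non-VSD libraries lie above it in both panels, while 3 VSD libraries lie below it on the left only.

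The fitted log2 fold change of non-VSD against NC was 0.88 (SE 0.17, edgeR quasi-likelihood fit, n = 7 and 7). VSD against NC gave 0.61 (SE 0.18) and VSD against non-VSD gave -0.24 (SE 0.15), all without a test for the reason given above. With library totals in place of TMM factors these were 1.09, 1.02 and -0.08, while the median microRNA itself moved by 0.13, 0.32 and 0.19. Taken relative to the median microRNA, the differences were 0.95, 0.66 and -0.26 with TMM factors and 0.97, 0.70 and -0.27 with library totals. With any 1 library left out, the fold change of non-VSD against NC stayed between 0.80 and 0.93 and that of VSD against NC between 0.47 and 0.66.

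**Figure D3:**
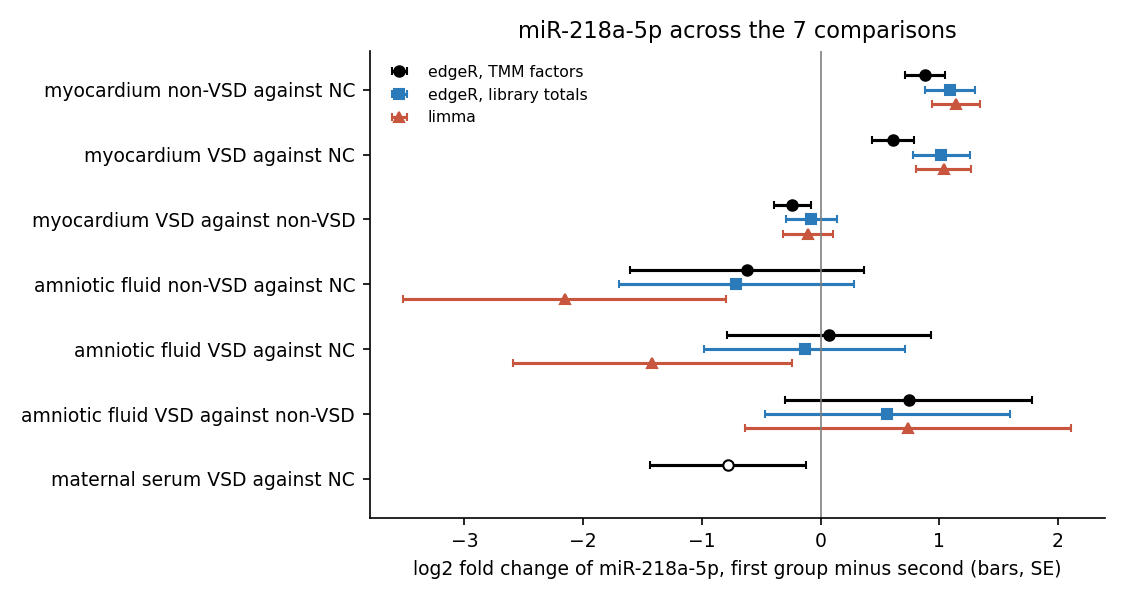
log2 fold change of miR-218a-5p, first group minus second, in the 7 comparisons with its SE (bars), by edgeR with TMM factors, edgeR with library totals and limma. In serum the open symbol is edgeR without a filter on low counts. Both myocardial comparisons with NC are above 0 by every tool drawn, whereas the SE in amniotic fluid is near 1 or above.

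Few microRNAs were separated between the groups in this way. With TMM factors, 2 of 456 microRNAs tested lay wholly higher in non-VSD than in NC myocardium (0.439%), and the other was miR-155-5p, a microRNA of activated immune cells, at 87.9 to 173.7 against 41.6 to 87.2 CPM. A further 4 lay wholly lower (0.877%), namely miR-101a-3p, miR-101b-3p, miR-542-3p and let-7f-2-3p. Just short of full separation, 9 of 456 were higher in 46 to 48 of 49 pairs of libraries. Of these, miR-450a-3p was higher in 48 pairs. miR-146a-5p, miR-125a-5p, miR-28-5p, miR-291a-3p and miR-29b-3p were each higher in 47. With library totals, 9 of 456 lay wholly higher (1.97%), among them miR-126a-3p, the endothelial microRNA hosted by Egfl7, at 18967 to 27550 against 9414 to 14142 CPM. In VSD against NC, 3 of 469 lay wholly higher with TMM factors (0.64%), which were miR-146a-5p, miR-218a-5p and miR-181a-5p. These counts describe the contrast that chose the microRNA and carry no test of it.

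In the fits across all microRNAs, edgeR called 1 of 456 at an adjusted p under 0.05 in non-VSD against NC myocardium (0.219%). That microRNA is miR-218a-5p, which was selected on these same values, so the call is no test of it and nothing is read from it. It called 2 of 469 in VSD against NC (0.426%), of which miR-146a-5p, a brake on inflammatory signalling, was higher in VSD and miR-6329 was lower. In VSD against non-VSD it called 0 of 483 (0%), with 56 at an unadjusted p under 0.05 and 0 called by DESeq2 or limma. DESeq2 and limma called 48 and 29 microRNAs in non-VSD against NC and 46 and 44 in VSD against NC. Without NC replicate 2, edgeR called 19 in non-VSD against NC and 77 in VSD against NC. In non-VSD against NC, 0 were called without NC replicates 1, 4, 5 or 7 or non-VSD replicates 2, 4, 5 or 7, each left out alone, and 2 to 4 without NC replicates 3 or 6 or non-VSD replicates 1 or 3. In VSD against NC, 0 were called without NC replicates 1 or 3 or VSD replicates 1 or 5, 1 without VSD replicates 2 or 4, 4 and 5 without NC replicates 4 and 6, and 20 without VSD replicate 6.

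NC replicate 2 stood apart from the other NC myocardia. Its heart muscle microRNAs (miR-1, miR-133, miR-208 and miR-499 families, 8 in all) summed to 13332 TMM CPM, the lowest of NC, where the median was 100191. Its epithelial microRNAs (miR-200 family, miR-141, miR-203a, miR-205, miR-375 and miR-429, 8 in all) summed to 14234, against 251 to 5211 in the other NC libraries. Its red blood cell list was also the lowest of NC, at 2651. VSD replicates 1 and 4 had a like profile, with heart muscle sums of 14356 and 21691 and epithelial sums of 15250 and 12120. Without NC replicate 2 the log2 fold change of miR-218a-5p was 0.93 (SE 0.17) in non-VSD against NC and 0.63 (SE 0.19) in VSD against NC. The highest NC level on library totals was then 3956 CPM, below all 14 DMO libraries.

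All the markers checked were present in every myocardium group, the heart muscle list among them. In bulk tissue, fewer cells of a type and less RNA per cell cannot be told apart. The summed blood cell microRNAs had lower medians in the DMO groups than in NC on both scales, with none called. The 4 red blood cell microRNAs (miR-144-3p, miR-144-5p, miR-451-5p and miR-486) summed to a median of 33788 TMM CPM in NC (2651 to 91132), 7003 in non-VSD (3255 to 33984) and 7522 in VSD (3435 to 25158). Their median log2 fold change was -1.61 in non-VSD and -2.37 in VSD against NC, beside -0.07 and -0.05 over all microRNAs tested. In either comparison 0 of 4 passed, where edgeR called 1 of 456 and 2 of 469 in all. At an unadjusted p under 0.05 in edgeR, 3 of 4 were lower in non-VSD and 4 of 4 in VSD. Over all microRNAs tested, 41 of 456 and 59 of 469 were lower at that threshold. The 4 white blood cell microRNAs summed to medians of 1523, 525.5 and 570.9 TMM CPM in NC, non-VSD and VSD, and 0 of 4 passed. Their median log2 fold change was -0.63 in non-VSD and -0.98 in VSD against NC, with 1 of 4 positive in each. At an unadjusted p under 0.05 in edgeR, 1 of 4 was lower in non-VSD and 2 of 4 in VSD. By mean, miR-142-5p stood at 942.7, 304.7 and 160.7 TMM CPM and miR-142-3p at 908.7, 456.4 and 259.4. Means of miR-150-5p were 183.6, 143.2 and 166.6, and of miR-223-3p 35.15, 35.1 and 39.91. The part of blood cells in the level of miR-218a-5p was not tested.

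Vascular and neural microRNAs, the tissues in which miR-218 is best known, were checked as well. The endothelial pair miR-126a-3p and miR-126a-5p summed to medians of 14949, 22596 and 20403 TMM CPM in NC, non-VSD and VSD. The log2 fold change of miR-126a-3p in non-VSD against NC was 0.77 (SE 0.20, edgeR adjusted p = 0.091) and that of miR-126a-5p, the other arm of its hairpin, was -0.03 (SE 0.21). The 6 smooth muscle and mesenchymal microRNAs summed to medians of 237410, 227992 and 197650 TMM CPM. Most of that sum is miR-143-3p, whose means were 264338, 211934 and 172426. Their median log2 fold change was -0.01 in non-VSD against NC, with 3 of 6 positive. In VSD against NC it was 0.21, with 5 of 6 positive. The 9 neural microRNAs summed to medians of 7625, 4189 and 6137 TMM CPM, most of it miR-7a-5p, whose means were 8919, 3903 and 5006. By mean, miR-9a-5p stood at 489, 461 and 768 TMM CPM and miR-137-3p at 3.78, 6.15 and 15.2. The median log2 fold change of the list was -0.12 over the 7 members tested in non-VSD against NC, where 1 was positive. In VSD against NC it was 0.50 over 9, with 6 positive. The 8 heart muscle microRNAs had median log2 fold changes of -0.09 and -0.47, and the 8 epithelial ones of -0.25 and 1.20. None of these lists had a member called in myocardium.

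Since miR-218a-5p is carried by protein-coding host genes, it was set beside 29 other microRNAs known to lie within protein-coding genes. In non-VSD against NC myocardium 29 of 29 were tested, 0 passed, 16 had a positive log2 fold change and the median was 0.10, beside -0.07 over all microRNAs. In VSD against NC 0 of 29 passed, 10 were positive and the median was -0.16. miR-190a-5p, hosted by Tln2, had values of 1.17 (SE 0.32, adjusted p = 0.091) and 1.39 (SE 0.34, adjusted p = 0.0645) in the edgeR fits. miR-28-5p, hosted by Lpp, had 0.46 (SE 0.15) and 0.13 (SE 0.18). miR-499-5p, carried by the myosin gene Myh7b, had 0.33 (SE 0.41) and -0.51 (SE 0.55). Other members were lower, such as miR-148b-3p, with means of 4275, 2406 and 2112 TMM CPM in NC, non-VSD and VSD. At an unadjusted p under 0.05 in edgeR, 6 of 29 were higher and 4 lower in non-VSD against NC. Over all 456 microRNAs tested there, 39 were higher and 41 lower.

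The passenger arms, cut from the other side of the hairpin and mostly degraded, were the only reads that name a locus. In NC, non-VSD and VSD myocardium, miR-218a-1-3p had 11, 10 and 25 reads in all and miR-218a-2-3p had 31, 28 and 56. Beside them miR-218a-5p had 146701, 272799 and 323530 reads, which is 3493, 7179 and 3994 times as many. Over the 21 libraries 71.4% of the 3′ arm reads came from Mir218-2, the precursor in Slit3 (115 of 161, exact binomial 95% interval 63.8% to 78.3%). The share was 73.8%, 73.7% and 69.1% in NC, non-VSD and VSD, with intervals that overlap widely. A share of passenger arms is not a share of miR-218a-5p, since each locus may keep its 3′ arm to a different degree.

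Both 3′ arms together measured 0.931 CPM in NC (exact Poisson 95% interval 0.671 to 1.26), 0.945 in non-VSD (0.669 to 1.30) and 1.57 in VSD (1.25 to 1.96). These intervals cover counting error only. The 3′ arms of NC and non-VSD thus stood side by side at these counts, while the pooled level of miR-218a-5p was 3253 CPM in NC, 6782 in non-VSD and 6286 in VSD, and the difference between the arms was not tested.

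Likeness to miR-218a-5p was measured as Spearman's rho over TMM-scaled log2 CPM in the 21 myocardium libraries, for 482 microRNAs. These correlations are descriptive, since the libraries share group membership and depth. The 5 highest were miR-466c-5p (0.70), miR-19b-1-5p (0.69), miR-29b-3p (0.69), miR-345-3p (0.67) and miR-340-3p (0.65). The 3 lowest were miR-101a-3p (-0.75), miR-423-5p (-0.75) and miR-101b-3p (-0.75). A rho over 0.5 was found for 26 microRNAs and one below -0.5 for 38. After the mean of each group was subtracted, miR-466c-5p kept 0.45, miR-29b-3p 0.20 and miR-345-3p 0.14, whereas miR-423-5p kept -0.57 and miR-101a-3p -0.14. miR-423-5p averaged 513 TMM CPM in NC, 313 in non-VSD and 340 in VSD, and miR-466c-5p averaged 31.2, 47.3 and 61.9.

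**Figure D4:**
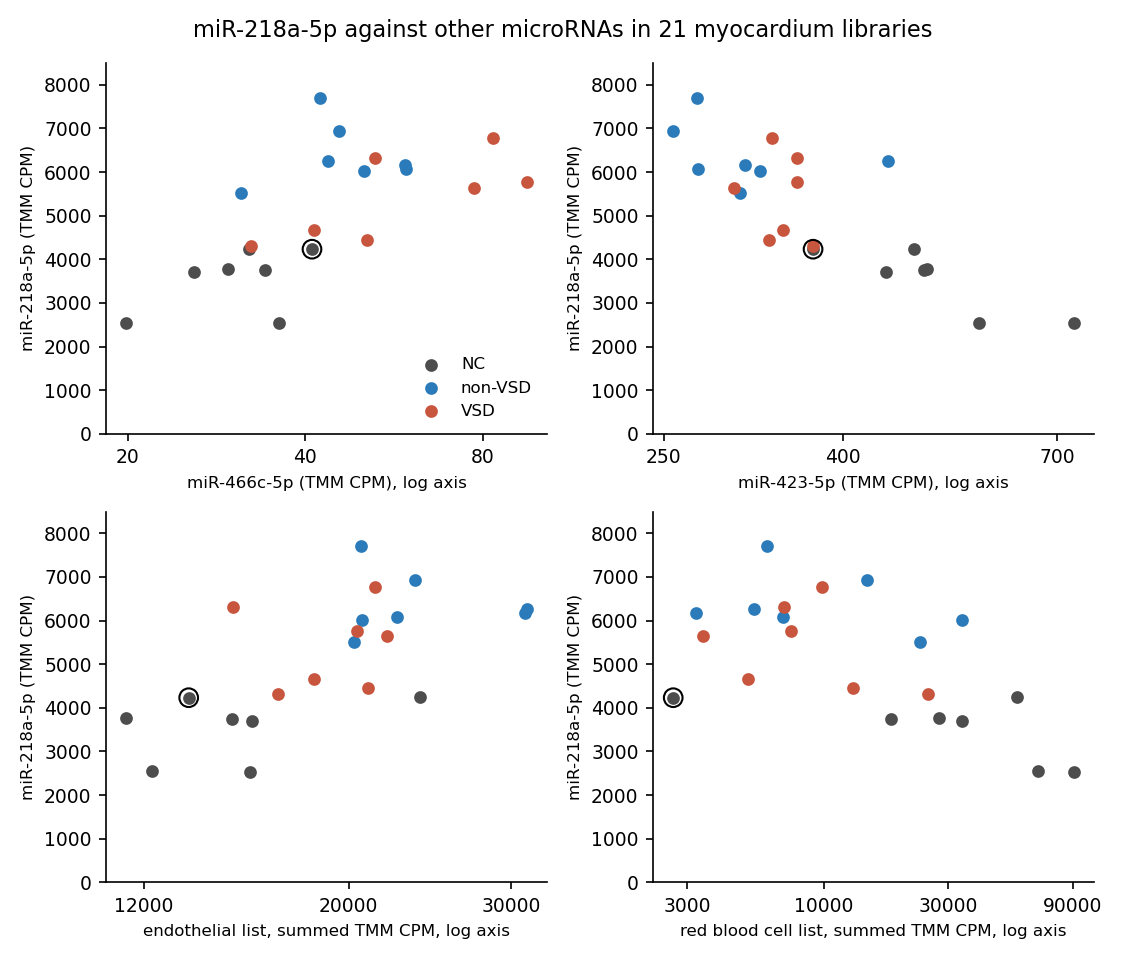
miR-218a-5p against miR-466c-5p, miR-423-5p, the endothelial list and the red blood cell list in the 21 myocardium libraries, all in TMM CPM with log horizontal axes. Each point is a library, and NC replicate 2 is ringed. Spearman's rho is 0.70, -0.75, 0.63 and -0.54 in that order. After the mean of each group was subtracted it is 0.45, -0.57, 0.14 and -0.42. The endothelial sum is mostly miR-126a-3p (0.64 alone), and its other member, miR-126a-5p, has -0.12.

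Against the summed lists, rho was 0.63 for the endothelial list, which kept 0.14 after the group means were subtracted. Of its 2 members, miR-126a-3p had 0.64 and kept 0.06, whereas miR-126a-5p had -0.12 and kept -0.08. For red blood cells rho was -0.54 and for white blood cells -0.59, which kept -0.42 and -0.47. The white blood cell members miR-142-5p, miR-142-3p, miR-150-5p and miR-223-3p had -0.58, -0.47, -0.31 and 0.06. For the epithelial list rho was 0.34, and 0.49 after the group means were subtracted. The heart muscle list had -0.45 and -0.46. The neural list, mostly miR-7a-5p, had -0.51 and kept -0.25. The smooth muscle and mesenchymal list, mostly miR-143-3p (-0.39 alone), had -0.37 and kept -0.18. Its other members were miR-145-3p (0.54), miR-199a-3p (0.47), miR-199a-5p (0.18), miR-214-3p (0.03) and miR-145-5p (0.006). The intron-encoded list had -0.31 and -0.38. The part of these cell types in the level of miR-218a-5p was not tested.

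In amniotic fluid no difference in miR-218a-5p between groups passed the test. NC replicates held 4 to 20 reads, as given above. Non-VSD replicates 1 to 7 held 0, 45, 26, 0, 6, 3 and 2 reads, or 0 to 208.7 CPM with a median of 37.6. VSD replicates held 7, 0, 2, 51, 8, 2 and 48 reads, or 0 to 309.3 CPM with a median of 37.7. All NC libraries had at least 1 read, 2 non-VSD libraries and 1 VSD library had none, and the ranges overlap throughout. Libraries of 1 group differed by more than counting error, as in VSD replicate 7 at 309.3 CPM (exact Poisson 95% interval 228.1 to 410.1) and VSD replicate 3 at 10.4 CPM (1.25 to 37.4). By the limit of 3 counts, 0 reads allow up to 17.2 and 17.0 CPM in non-VSD replicates 1 and 4 and 36.9 CPM in VSD replicate 2.

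The edgeR log2 fold change was -0.62 in non-VSD against NC (SE 0.99, adjusted p = 0.825), 0.07 in VSD against NC (SE 0.86, adjusted p = 0.961) and 0.74 in VSD against non-VSD (SE 1.04, adjusted p = 0.886). The value of non-VSD against NC was -2.16 with limma, and -1.28 and -1.01 without non-VSD replicates 3 and 2 and -0.40 without NC replicate 2. VSD against non-VSD was 0.04 without VSD replicate 7 and 1.37 without non-VSD replicate 3, and none of these passed. The value of VSD against NC turns negative with library totals (-0.13) or limma (-1.42), and also without VSD replicate 7 (-0.60) or VSD replicate 4 (-0.34), the libraries with most reads of it, or without NC replicate 6 (-0.13), the NC library with fewest. miR-218a-5p was not among the 12 of 242 microRNAs called in non-VSD against NC (4.96%). Of the lists, the red blood cell microRNAs miR-451-5p (log2 fold change 2.51, SE 0.63) and miR-486 (1.20, SE 0.30) and the endothelial and intron-encoded miR-126a-3p (1.54, SE 0.44) rose there, at adjusted p of 0.0272, 0.0272 and 0.0464. The other endothelial member, miR-126a-5p, did not rise, since 1 of the 2 had a positive log2 fold change (median 0.59). Instead of 12, 0 were called without NC replicate 1, NC replicate 3 or non-VSD replicate 5, 2 without NC replicate 2, 3 to 6 without non-VSD replicate 2, non-VSD replicate 3 or NC replicate 4, and 21 without non-VSD replicate 6. In VSD against NC 0 of 245 were called (0%), with 33 at an unadjusted p under 0.05 and 0 by DESeq2 or limma. In VSD against non-VSD 0 of 273 were called (0%), with 29 unadjusted, 6 by DESeq2 and 0 by limma.

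Of the lists fixed for the tissues, heart muscle microRNAs summed to medians of 479, 1158 and 1071 TMM CPM in NC, non-VSD and VSD amniotic fluid. Epithelial microRNAs were far more abundant there, at medians of 114271, 73972 and 114859 TMM CPM. The highest heart muscle sum in VSD was in replicate 4, at 8682 TMM CPM, where miR-218a-5p was at 254.5 TMM CPM. In contrast, miR-218a-5p was highest in VSD replicate 7, at 353.9 TMM CPM. The 3′ arms were near absent from this fluid, with 3 reads of miR-218a-2-3p, all in non-VSD.

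In maternal serum miR-218a-5p was at the edge of detection. NC replicates held 6, 11, 9, 4, 8, 0 and 7 reads and VSD replicates 0, 4, 4, 2, 5, 0 and 3. The groups overlap, and the pooled levels were 14.96 CPM in NC (45 reads, exact Poisson 95% interval 10.9 to 20.02) and 9.15 in VSD (18 reads, 5.42 to 14.5). The 0 reads of NC replicate 6 and VSD replicates 1 and 6 allow up to 6.05, 10.3 and 8.09 CPM. It did not pass the filter on low counts. The mean of log2(CPM + 1) was 0.84 lower in VSD than in NC (exact permutation test, two-sided, n = 7 and 7, p = 0.313), and edgeR without the filter gave -0.78 (SE 0.65, adjusted p = 0.655). The difference was -1.45 without NC replicate 6 (exact permutation test, p = 0.0804) and -0.38 without VSD replicate 1 or without VSD replicate 6 (p = 0.545 in both), the libraries with 0 reads. In the filtered fit 0 of 219 microRNAs were called (0%), with 30 at an unadjusted p under 0.05, 4 by DESeq2 and 0 by limma. Serum was rich in blood cell microRNAs, with red blood cell sums of 87486 TMM CPM in NC and 81302 in VSD at the median. Of that list, 0 of the 2 tested members passed.

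In depth, myocardium libraries held 1694811 to 9371130 microRNA reads, amniotic fluid 78188 to 331787 and serum 147609 to 581350.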

How the data were processed

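Whole-number read counts per microRNA were used as deposited by the authors, in 5 tables, joined by microRNA name within each tissue. The authors converted reads with bcl2fastq 2.19 per the labels and filtered them with the Fastx-toolkit. The aligner, the annotation and the use of molecular identifiers in the amniotic fluid libraries are not given in the sources used here, nor is how reads that match both precursors were counted. The 70 deposited normalized columns and the authors' own comparison columns (fold changes and p-values) were not used.

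Counts were filtered with filterByExpr (minimum count 10), scaled by TMM and fitted by the quasi-likelihood test of edgeR 4.0.16 (R 4.3.3), with DESeq2 1.42.0 and limma 3.58.1 as alternatives. Non-VSD against NC and VSD against NC used the samples of those groups, and VSD against non-VSD used all 3 groups of a tissue. p-values were adjusted by Benjamini-Hochberg over the microRNAs tested in a comparison and called at 0.05. CPM values divide by library totals unless TMM is named, TMM CPM values share one set of factors per tissue, and log2(CPM + 1) was compared by exact permutation (scipy 1.17.1). The exact test in serum was chosen after its filter had removed the microRNA. The fits were tested on simulated data. Depth was 1694811 to 9371130 reads per myocardium library, 78188 to 331787 in amniotic fluid and 147609 to 581350 in serum. Confidence intervals are exact at 95% and cover counting error only, and a count of 0 was given a limit of 3 counts.

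miR-218a-5p, the marker lists and the naming rule (the 5 highest and 3 lowest correlations, and up to 10 microRNAs without overlap) were chosen with earlier results of these data known. No 2 libraries of a group agreed within sampling noise. Within a tissue, replicate numbers shared by groups did not pair the samples and were used only as an alternative. Pairing of samples across tissues was not examined, and the tests between tissues treated them as independent.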

Additional observations from a re-analysis of the deposited data

How the results depend on the processing

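The myocardial log2 fold change of miR-218a-5p against NC was above 0 in every alternative run, a direction that its selection had set in non-VSD. VSD was compared with the same NC libraries that the selection used, so its direction is not independent of that selection. In non-VSD it rose from 0.88 to 1.14 with limma, and in VSD from 0.61 to 1.02 with library totals and 1.04 with limma, scales on which the median microRNA rose too. In amniotic fluid non-VSD against NC it was -0.62, and -2.16 with limma and -1.47 with the replicate block. In VSD against NC there it changed sign, from 0.07 to -0.13 with library totals, -1.42 with limma and -0.71 with the replicate block, and spanned -0.60 to 0.40 with 1 library left out. The NC difference of amniotic fluid from serum was 1.27 (adjusted p = 0.112, exact permutation test) with TMM factors over all NC libraries.

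Counts of called microRNAs moved far more than the values of miR-218a-5p. In non-VSD against NC myocardium the count was 1, and 22 with library totals, 48 with DESeq2, 29 with limma, 3 without the filter, 7 with all 3 groups in one fit and 0 with the replicate block. It spanned 0 to 19 with 1 library left out. In VSD against NC it was 2, and 38, 46, 44, 1, 25 and 0 under the same settings, and spanned 0 to 77. In amniotic fluid non-VSD against NC it was 12, and 29 with DESeq2, 6 with limma and 2 with the replicate block, and spanned 0 to 21. VSD against NC there spanned 0 to 1, and VSD against non-VSD 0 to 3, with 1 under library totals and 6 under DESeq2. In serum it was 4 with DESeq2, 3 without the filter and 5 with the replicate block, and spanned 0 to 2. The causes were not tested.

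Of 326 alternative values over 17 results, 258 kept their direction and call, or stayed within the spread of replicates or 1.5 times the count. In no comparison did all 7 pairs of samples with the same replicate number deviate together, and at most 1 of 7 correlated best with its own number. Low counts and the spread between libraries both bear on the comparisons in the fluids.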
